A study of Mus musculus with 64 samples.

Results

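The genes described here are the nuclear genes of mitochondrial complex I in mouse fat. They were chosen by symbol: every gene whose name begins with Nduf followed by a, b, c, s, v, ab or af and a number, with at least 10 counts in at least 4 of the 64 libraries. Of the 24328 genes in the deposited counts, 45 had such a name and 44 met the count rule, out of 14671 genes that met it in all. The 44 are 35 structural subunits, 7 Ndufaf assembly factors, and Ndufa4 with its isoform Ndufa4l2, which are kept apart because Ndufa4 is now assigned to cytochrome c oxidase. The structural subunits were divided by their known place into 7 core catalytic subunits, 9 accessory subunits of the matrix arm, 18 accessory subunits of the membrane arm, and Ndufab1. The gene that did not meet the rule was Ndufs5, an accessory subunit of the membrane arm on its intermembrane face. It had between 0 and 1 counts in every library, and the reason was not tested. The complex I genes of the mitochondrial genome were not analysed here.

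Complex I, NADH:ubiquinone oxidoreductase, is the entry point of the respiratory chain for electrons from NADH. Its matrix arm carries the flavin and iron-sulfur clusters of the core subunits, its membrane arm pumps protons, and accessory subunits surround both. Assembly factors help to build the complex and are not part of the finished enzyme. Brown fat is known for its many mitochondria, which burn fuel for heat, and rosiglitazone, an activator of the nuclear receptor PPAR gamma, is known to induce mitochondrial genes in white fat cells. The roles given for single subunits below are those established mostly in the bovine and human enzyme.

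RNA of whole fat depots was sequenced from C57BL/6J mice (B6), 129S1/SvlmJ mice (129) and their B6/129S1 F1 hybrid (F1). The depots were inguinal fat (iWAT, subcutaneous), epididymal fat (eWAT, visceral) and brown fat (BAT), from mice fed low-fat (LFD) or high-fat (HFD) food, with rosiglitazone (rosi) or as control. The 15 groups were brown fat of B6 mice on HFD, whose labels name no agent (4 libraries); B6 iWAT control on LFD (4), control on HFD (4) and rosi on HFD (4); 129 iWAT control and rosi on HFD (4 each); and F1 iWAT control and rosi on LFD (5 each). In eWAT they were a first B6 set on LFD and on HFD with no agent named (5 each), a second B6 set with control on LFD, control on HFD and rosi on HFD (4 each), and 129 control on LFD and on HFD (4 each). Doses, durations and ages were not given in the sources used here, nor whether each library came from its own animal. The p-values therefore measure the spread between libraries, which may be technical.

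Library totals ran from 3099737 to 9551251 counts over genes, and between 15030 and 21330 genes had a count. Adipocyte markers took between 1.76% and 6.13% of the counts in every library, and brown adipocyte markers took between 0.936% and 1.06% in BAT against at most 0.67% elsewhere. Skeletal muscle markers took between 0.8745% and 9.22% of the counts in B6 iWAT on LFD and 4.52% in 1 library of 129 iWAT control. The labels name 7 combinations of sequencing run and lane. Each rosi comparison and the first diet set in B6 eWAT lay within 1 run and lane. In the second B6 set and in 129, the eWAT libraries on LFD and on HFD were sequenced in different runs, as were BAT and iWAT, and the strains in iWAT were on different lanes of 1 run. These differences and the groups cannot be told apart. The text gives levels as CPM (counts scaled to the library total) with TMM scaling of libraries, as mean ± SD, and differences as log2 fold changes ± SE. A gene is said to rise or fall where edgeR's quasi-likelihood test gave a Benjamini-Hochberg adjusted p under 0.05 over all genes tested in that comparison.

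Promoter sequences were available for 38 of the 44 genes, 31 of them structural, as 300 bases from 250 before to 50 after the RefSeq start (build GRCm38.p6). The authors aligned to another build, mm9, and these sequences serve only to show the genes. They were searched on both strands for 5 motifs of factors known to bind genes of respiration. The NRF1 motif was found in 6 of the 31 structural promoters (19.4%), against 4.78% of all 27025 promoters of the table. The YY1 motif AAGATGGC was found in 7 (22.6%), against 2.88% of all promoters. In each of the 7 it lay within the bases after the start and on the coding strand. The GABP motif CCGGAAG was found in 4 (12.9%), against 9.12%. The ERR motif TCAAGGTCA and a perfect PPAR and RXR direct repeat were found in 0 of the 31, against 0.407% and 0.0444% of all promoters. No stretch matched by one motif overlapped a match of another in the structural promoters. A match is a description of the letters in this window and does not show a binding site.

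The promoters printed here are of genes to which the results return. They show an NRF1 and a YY1 match in Ndufs6, a YY1 match in Ndufs7 and in Ndufb8, an NRF1 match in Ndufa11, a GABP match in Ndufs8 and no match in Ndufv1. Each is written from 5′ to 3′ on the strand of its gene, with the matched bases in capitals. They lie at chr13:73328433-73328732 (minus strand), chr10:80249199-80249498 (plus strand), chr19:44555393-44555692 (minus strand), chr17:56717512-56717811 (plus strand), chr19:3912725-3913024 (minus strand) and chr19:4012706-4013005 (minus strand) for Ndufs6, Ndufs7, Ndufb8, Ndufa11, Ndufs8 and Ndufv1. In Ndufs6 the NRF1 match is the first stretch in capitals and the YY1 match is the second.
Ndufs6: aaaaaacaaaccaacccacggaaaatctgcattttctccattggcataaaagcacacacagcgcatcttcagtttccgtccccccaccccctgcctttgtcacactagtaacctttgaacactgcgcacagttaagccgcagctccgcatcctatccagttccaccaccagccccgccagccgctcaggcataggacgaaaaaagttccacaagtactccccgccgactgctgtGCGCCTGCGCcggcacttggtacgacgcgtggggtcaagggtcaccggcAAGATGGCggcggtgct
Ndufs7: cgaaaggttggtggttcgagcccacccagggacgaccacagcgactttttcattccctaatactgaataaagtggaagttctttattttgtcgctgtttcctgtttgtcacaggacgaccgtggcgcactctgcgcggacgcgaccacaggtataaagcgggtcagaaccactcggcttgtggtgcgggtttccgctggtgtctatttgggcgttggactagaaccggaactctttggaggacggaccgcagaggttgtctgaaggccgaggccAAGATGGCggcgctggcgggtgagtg
Ndufb8: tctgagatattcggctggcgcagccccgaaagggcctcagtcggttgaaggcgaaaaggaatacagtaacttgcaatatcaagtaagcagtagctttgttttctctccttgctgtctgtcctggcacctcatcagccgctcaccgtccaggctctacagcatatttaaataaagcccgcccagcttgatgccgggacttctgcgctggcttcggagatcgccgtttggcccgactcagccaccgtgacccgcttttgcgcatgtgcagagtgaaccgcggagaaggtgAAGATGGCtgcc
Ndufa11: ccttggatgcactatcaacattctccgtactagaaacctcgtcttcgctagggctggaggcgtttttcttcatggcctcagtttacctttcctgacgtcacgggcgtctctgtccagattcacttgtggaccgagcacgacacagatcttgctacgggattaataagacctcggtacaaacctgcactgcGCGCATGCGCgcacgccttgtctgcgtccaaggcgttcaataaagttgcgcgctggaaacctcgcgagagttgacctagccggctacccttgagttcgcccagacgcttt
Ndufs8: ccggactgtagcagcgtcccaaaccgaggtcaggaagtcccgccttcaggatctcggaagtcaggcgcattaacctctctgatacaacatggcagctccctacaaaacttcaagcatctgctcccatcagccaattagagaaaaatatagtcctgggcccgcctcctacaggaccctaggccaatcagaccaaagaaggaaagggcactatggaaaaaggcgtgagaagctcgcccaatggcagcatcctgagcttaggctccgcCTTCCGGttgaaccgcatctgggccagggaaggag
Ndufv1: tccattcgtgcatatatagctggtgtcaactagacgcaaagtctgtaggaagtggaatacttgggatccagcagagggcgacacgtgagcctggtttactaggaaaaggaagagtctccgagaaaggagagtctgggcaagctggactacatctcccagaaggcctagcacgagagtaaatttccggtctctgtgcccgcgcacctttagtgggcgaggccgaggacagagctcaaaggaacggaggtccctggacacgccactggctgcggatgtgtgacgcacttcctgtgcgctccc

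Complex I genes were highest in brown fat. The summed level of the 35 structural subunits was 14230 ± 1614 CPM in BAT (n = 4), and its libraries lay between 12394 and 15650 CPM. The next group was F1 iWAT with rosi, at 7488 ± 1169 CPM (n = 5) and between 6568 and 9458 CPM. Neither overlapped any other group. B6 iWAT with rosi followed at 4384 ± 626 CPM, and its range of 3453 to 4771 CPM overlapped that of 129 iWAT with rosi, 2768 to 4440 CPM around a mean of 3591 ± 771 CPM. Below these, the controls of F1 iWAT (3194 ± 449 CPM), 129 iWAT (3121 ± 250 CPM) and 129 eWAT on LFD (3117 ± 166 CPM) were close to each other, and each neighbour in the order overlapped the next down to the lowest group. That group was B6 eWAT control on HFD, second set, at 1685 ± 288 CPM. This order compares levels across runs whose libraries differed. Reads in no feature, outside any counted gene, made up 66.8% to 70.6% in the F1 libraries and 64.3% to 67.7% in the first B6 eWAT set. In all other groups they made up at most 49.1%. Ambiguous reads were at most 0.269% in the F1 libraries and the first set, and at least 0.672% in the others. The part of this in the order was not tested. All 35 structural subunits and all 7 assembly factors had their highest group mean in BAT, and 21 of the 35 had their lowest in B6 eWAT control on HFD. The ratio of the highest to the lowest group mean ran from 3.63 for Ndufa2, a small accessory subunit of the matrix arm, to 17.8 for Ndufv1, the core subunit that binds NADH and the flavin.

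**Figure D1:**
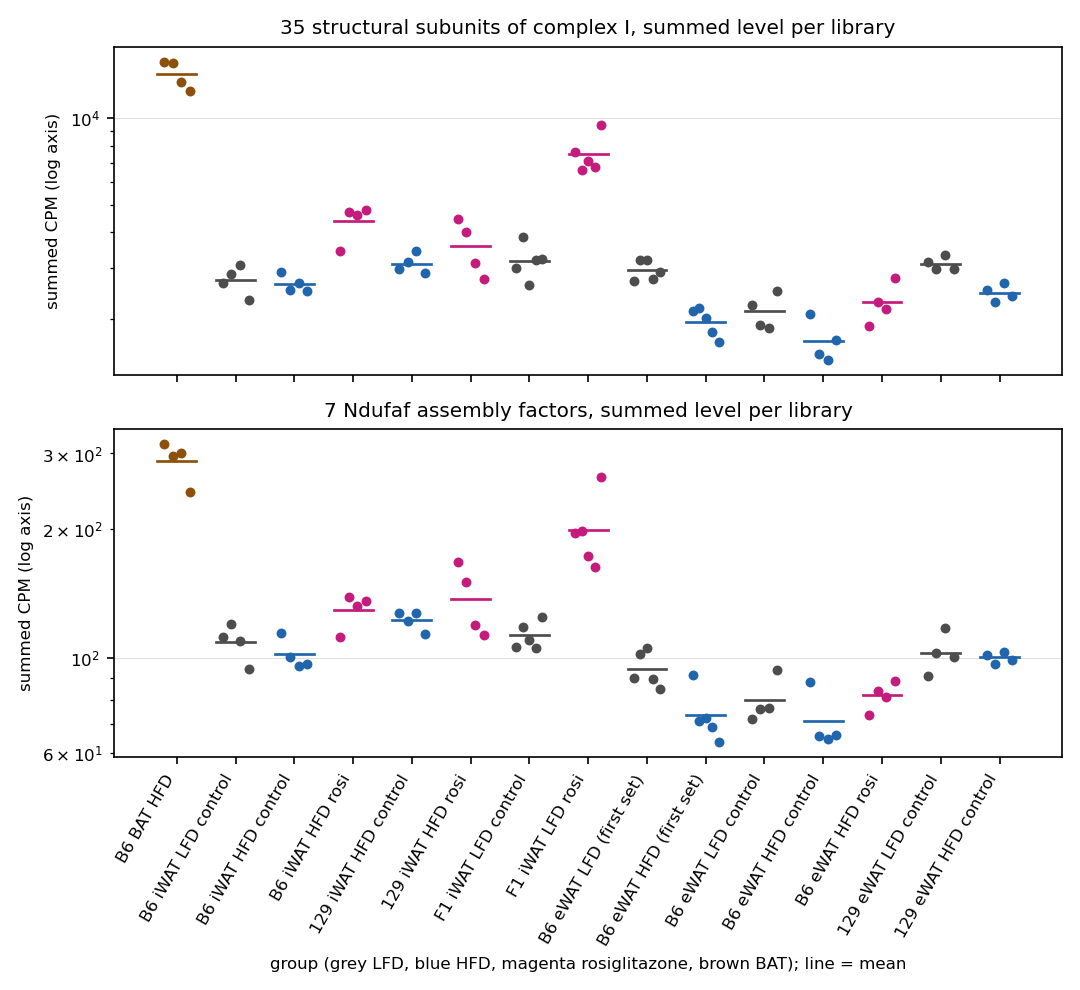
Summed CPM (log axis) of the 35 structural subunits (top) and of the 7 assembly factors (bottom) in each of the 64 libraries, by group, where points are libraries and lines are group means. BAT lies above every other group for the structural subunits, F1 iWAT with rosi is next, and B6 eWAT control on HFD has the lowest structural mean, 1685 CPM.

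The comparison of BAT with iWAT in B6 mice on HFD gives the difference between a thermogenic and a white depot. Ndufv1 was at 1458, 1629, 1188 and 1258 CPM in BAT and at 166.5, 144.2, 157.6 and 137.7 CPM in iWAT. Every BAT library lay far above every iWAT library, and edgeR's log2 difference was 3.17 ± 0.13 (adjusted p = 9.43e-09). All 35 structural subunits were higher in BAT and all 35 had groups that did not overlap, where 32.1% of the 12439 genes tested were higher and 33.2% lower (65.3% in either direction). Over all genes with CPM, 30.8% had every BAT library above every iWAT library. The median log2 difference of the structural subunits was 2.30, against -0.02 over all genes tested. In bulk tissue, fewer cells of a type and less RNA per cell cannot be told apart, here and in all comparisons below.

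The difference between BAT and iWAT was not of 1 size for all roles. The 7 core subunits had a median log2 difference of 2.77, with a lowest value of 2.29. The 9 accessory subunits of the matrix arm had a median of 2.21 and the 18 of the membrane arm 2.18. The largest difference was that of Ndufa10, a membrane arm subunit that resembles a nucleoside kinase, at 3.26 ± 0.13. The smallest was that of Ndufb3, a small membrane arm subunit, at 1.05 ± 0.10 (adjusted p = 5.60e-06). Ndufb3 was at 203.4, 211.3, 170.6 and 177.6 CPM in BAT and 103.6, 81.99, 91.53 and 85.53 CPM in iWAT, groups that did not overlap. As a share of the summed structural CPM, the core subunits took 41.5% ± 0.302 in BAT and 30.7% ± 0.369 in iWAT control on HFD. The lowest BAT library had 41.2% and the highest iWAT library 31.0%.

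The 7 assembly factors also rose, by less. Their median log2 difference was 1.19, and the largest was that of Ndufaf4, which acts early with Ndufaf3 on the quinone-binding module, at 2.15 ± 0.13 (adjusted p = 1.59e-07). Ndufaf4 was at 100.9, 98.31, 102.9 and 80.23 CPM in BAT and at 26.42, 19.22, 19.27 and 19.97 CPM in iWAT, with no overlap. The summed CPM of the assembly factors was 2.03% ± 0.151 of that of the structural subunits in BAT and 3.84% ± 0.166 in iWAT. Brown adipocyte markers differed with them: 9 of the 10 were higher in BAT, and of these 10 markers Zic1 had 0 counts in every library of iWAT control on HFD. Macrophage markers were lower in BAT for 11 of 13, and adipocyte markers were lower for 8 of 12 and higher for 3. The part of these markers in the result was not tested.

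Rosi was compared with control in B6 iWAT on HFD, with all libraries on 1 lane. Of the 35 structural subunits, 33 rose and 0 fell, where 6.83% of the 12789 genes tested rose and 6.38% fell. The median log2 difference was 0.65, against -0.04 over all genes, and all 35 values were above 0. Summed structural CPM was 3453, 4722, 4592 and 4771 with rosi and 2921, 2525, 2665 and 2505 in control. The first rosi library was lower than the other rosi libraries, and the groups did not overlap. Single subunits did not overlap in 27 of 35 cases, where 1282 of all 12789 genes had every rosi library above every control.

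Among the core subunits all 7 rose, with log2 differences between 0.50 and 0.80, though Ndufs8 lost its call in 6 of the 8 fits that left out 1 library. Ndufv1 was at 207.1, 290.1, 305.5 and 284.0 CPM with rosi against 137.7 to 166.5 CPM in control, a rise of 0.80 ± 0.12 (adjusted p = 0.00179). All 9 matrix arm accessory subunits rose, with a median of 0.61, and Ndufa2 among them lost its call in 6 of those fits. In the membrane arm 16 of 18 rose, with a median of 0.74. The largest rise was that of Ndufc1, a small membrane arm subunit, which was at 41.92, 57.61, 53.34 and 61.81 CPM with rosi and at 30.24, 27.38, 26.58 and 24.30 CPM in control (0.94 ± 0.12, adjusted p = 0.00101). The groups did not overlap. Ndufb5, another membrane arm subunit, had the lowest adjusted p of the members (0.80 ± 0.09, adjusted p = 6.44e-04). The 2 structural subunits that did not pass the test were Ndufa8, on the intermembrane face (0.75 ± 0.24, adjusted p = 0.0617), and Ndufb2, which had the lowest value of the 35 at 0.30 ± 0.12 (adjusted p = 0.150). Ndufab1, the mitochondrial acyl carrier protein, rose by 0.88 ± 0.26 (adjusted p = 0.0489), and this call was lost in 6 of the same 8 fits, with an adjusted p of up to 0.148. In the membrane arm Ndufb11 lost its call in 7 of them and Ndufb7 in 6. Between 26 and 35 structural subunits were called in those fits. Endothelial markers were lower with rosi for 7 of 8, and 0 of 13 macrophage markers passed the test. The part of the endothelial markers was not tested.

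The assembly factors did not pass the test in B6 iWAT. All 7 values were above 0, between 0.20 and 0.41, with a median of 0.31. Of the 7, 2 had an unadjusted p under 0.05 in edgeR, as had 27.5% of all genes, and 0 an adjusted p under 0.05, while DESeq2 called 1. Ndufaf1, which belongs to the complex that assembles the membrane arm, was at 31.88, 33.33, 34.52 and 30.25 CPM with rosi and at 29.25, 24.76, 23.59 and 21.65 CPM in control (0.35 ± 0.11, adjusted p = 0.0543). The groups did not overlap, by a small distance. The assembly factors' CPM as a share of the structural CPM was 2.98% ± 0.184 with rosi and 3.84% ± 0.166 in control, and every rosi library was below every control library. No test was made of the difference between the 2 kinds of gene.

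Rosi in F1 iWAT on LFD went with larger differences. All 35 structural subunits and all 7 assembly factors rose, where 18.7% of the 11859 genes tested rose and 19.1% fell. The median log2 difference was 1.15 for the structural subunits, 0.67 for the assembly factors and -0.03 over all genes. Ndufv1 was at 655.3, 513.6, 617.8, 555.5 and 735.7 CPM with rosi and at 191.9, 277.7, 175.4, 212.7 and 189.3 CPM in control (1.52 ± 0.14, adjusted p = 4.58e-06). The lowest rosi value was well above the highest control value, and none of the 35 structural subunits had overlapping groups, where 15.4% of all genes had every rosi library above every control. Ndufa10 rose most, by 1.59 ± 0.14, and Ndufa2 least, by 0.65 ± 0.10 (adjusted p = 2.21e-04). Ndufa10 and Ndufv1 were also the subunits with the largest differences between BAT and iWAT, a comparison with other libraries.

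Of the F1 assembly factors, Ndufaf4 rose by 1.24 ± 0.24 (adjusted p = 0.00122). Its values were 48.17, 64.13, 51.95, 29.37 and 91.53 CPM with rosi against 17.68 to 25.77 CPM in control. The rosi libraries were spread over a wide range and did not overlap the controls. Ndufaf1 rose by 0.80 ± 0.14, Ndufaf5, which hydroxylates the core subunit Ndufs7, by 0.67 ± 0.13, and Ndufaf2, which acts late in assembly, by 0.78 ± 0.20 (adjusted p = 0.00824). The share of the structural CPM taken by core subunits was 35.7% ± 1.40 with rosi and 33.4% ± 0.858 in control, with overlapping libraries. The share of assembly factors was 2.65% ± 0.254 with rosi and 3.58% ± 0.450 in control, and the lowest control library, at 3.05%, was above the highest rosi library, at 3.01%. B6 on HFD and F1 on LFD differ in strain, diet and run, so the sizes of the 2 rosi effects were not tested against each other. The 33 structural subunits that rose in B6 also rose in F1. Macrophage markers fell with rosi in F1 for 11 of 13, while their summed share of the counts was between 0.637% and 0.831% in control and between 0.690% and 0.879% with rosi. A sum of counts follows its most abundant members, and this sum does not give the level of the 11 that fell. The part of these markers was not tested.

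In 129 iWAT on HFD, 0 of 35 structural subunits passed the test for rosi, where 0.0394% of 12703 genes rose and 0.0708% fell. All 35 values were above 0, with a median of 0.17 against 0.00 over all genes, and 4 had an unadjusted p under 0.05 in edgeR, as had 8.53% of all genes. That median rests on single libraries: it was 0.07 without rosi library 1 and 0.28 without rosi library 4. DESeq2 called 1. Ndufb3 had the largest difference: 145.2, 144.6, 117.6 and 92.1 CPM with rosi and 74.19, 79.3, 93.47 and 80.19 CPM in control (0.60 ± 0.15, adjusted p = 0.195). Rosi library 4 was just below the highest control, so the groups overlapped. Summed structural CPM was 4440, 4017, 3140 and 2768 with rosi and 2976, 3170, 3451 and 2886 in control. Rosi libraries 1 and 2 were above all controls, library 3 lay among them and library 4 below them. Skeletal muscle markers also varied, between 0.0406% and 1.12% of the counts with rosi and 0.00868% and 4.52% in control, and their part was not tested.

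The difference between 129 and B6 in the effect of rosi was tested as an interaction. Of the 35 structural subunits, 0 passed, where 0.0904% of 13267 genes had a larger and 0.0151% a smaller effect in 129. All 35 values were below 0, with a median of -0.50 against -0.01 over all genes, 25 had an unadjusted p under 0.05 in edgeR, as had 9.27% of all genes, and DESeq2 called 1. The lowest adjusted p belonged to Ndufb4, a membrane arm subunit, at -0.60 ± 0.15 (adjusted p = 0.177). A difference in the rosi effect between the strains was thus not shown for any single subunit by edgeR.

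In B6 eWAT on HFD, rosi gave 0 calls among the 44 genes and in 0% of the 13213 genes tested. All 35 structural values were above 0, between 0.16 and 0.81, with a median of 0.47 against 0.00 over all genes, and 23 had an unadjusted p under 0.05, as had 4.72% of all genes. DESeq2 called 0 structural subunits, and an edgeR fit over all eWAT libraries called 2. Summed structural CPM was 1894, 2295, 2168 and 2784 with rosi and 2086, 1518, 1442 and 1692 in control. The first control library was above the lowest rosi library, and 6 of 35 subunits had groups that did not overlap, where 1.51% of all genes had every rosi library above every control. Ndufv1 was at 89.36, 103.1, 106.7 and 142.6 CPM with rosi and 106.9, 64.66, 59.16 and 80.42 CPM in control (0.54 ± 0.23, adjusted p = 0.932), where the first control library again overlapped. The interaction of rosi with depot in B6 called 0 of 35, 2 had an unadjusted p under 0.05, as had 4.33% of all genes, and DESeq2 called 0, where 0% of 13639 genes passed. Its median, iWAT minus eWAT, was 0.25.

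The B6 eWAT libraries of the rosi comparison also differed in other ways. Adipocyte markers took 3.88% of the counts in control library 1 and between 1.76% and 2.39% in the other controls, and between 2.75% and 4.67% with rosi. Rosi library 4, the highest for complex I, had the 4.67%, with 44.6% of its reads in no feature, 1.89% of its counts in the ribosomal RNA precursor Rn45s and 21330 genes with a count. The other rosi libraries had at most 35.4% in no feature and 1.296% in Rn45s. Without this library the median structural difference was 0.33, and without control library 1 it was 0.61. Summed brown adipocyte markers were at 78.9 to 132.5 CPM with rosi and 22.4 to 56.4 CPM in control, with no overlap. The part of these values in the result was not tested.

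**Figure D2:**
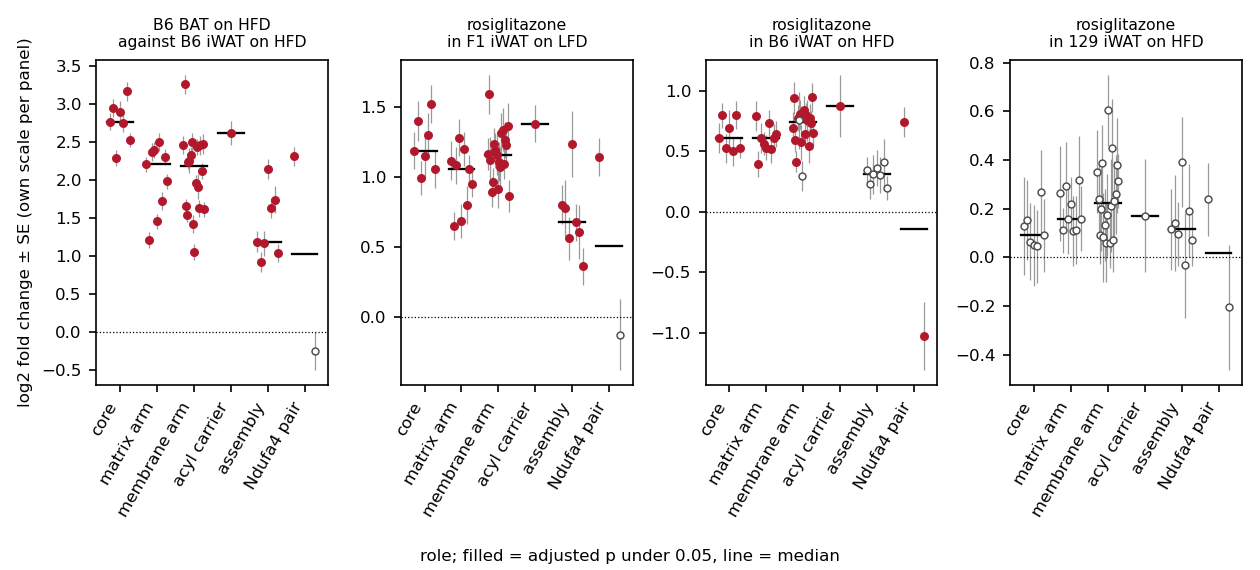
Log2 fold change ± SE (vertical axis, own scale in each panel) of the 44 genes by role for BAT against iWAT and for rosi in F1, B6 and 129 iWAT, where each point is a gene, filled points have an adjusted p under 0.05 and lines are medians. Assembly factors lie below the structural subunits in BAT (median 1.19 against 2.30), and in 129 iWAT no point is filled.

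Ndufa4 moved with the structural subunits and Ndufa4l2 did not. With rosi Ndufa4 rose by 0.74 ± 0.13 in B6 iWAT (adjusted p = 0.00425) and by 1.14 ± 0.14 in F1 iWAT (adjusted p = 3.69e-05), and it was higher in BAT by 2.31 ± 0.12. Ndufa4l2, an isoform known to be induced by hypoxia-inducible factor, was low, with between 4 and 71 counts a library. It was at 2.29, 3.853, 4.799 and 3.058 CPM with rosi in B6 iWAT and at 10.03, 4.951, 5.98 and 6.496 CPM in control. The groups did not overlap, and it fell by 1.03 ± 0.28 on the log2 scale (adjusted p = 0.0356). That call was lost in 6 of 8 fits that left out 1 library, with an adjusted p of up to 0.125. Its values were also below 0 with rosi in the other 3 rosi comparisons and in BAT, without passing the test (-0.21 in 129 iWAT, -0.13 in F1 iWAT, -0.63 in B6 eWAT and -0.26 in BAT). It was lower in 129 than in B6 iWAT on HFD by a log2 difference of -1.15 ± 0.26 (adjusted p = 0.00827), where 2.294, 3.023, 3.36 and 3.799 CPM in 129 lay below the 4.951 to 10.03 CPM of B6. That call held in all 8 fits that left out 1 library. It was the only 1 of the 44 genes that was lower in 129 in any of the 3 strain comparisons.

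**Figure D3:**
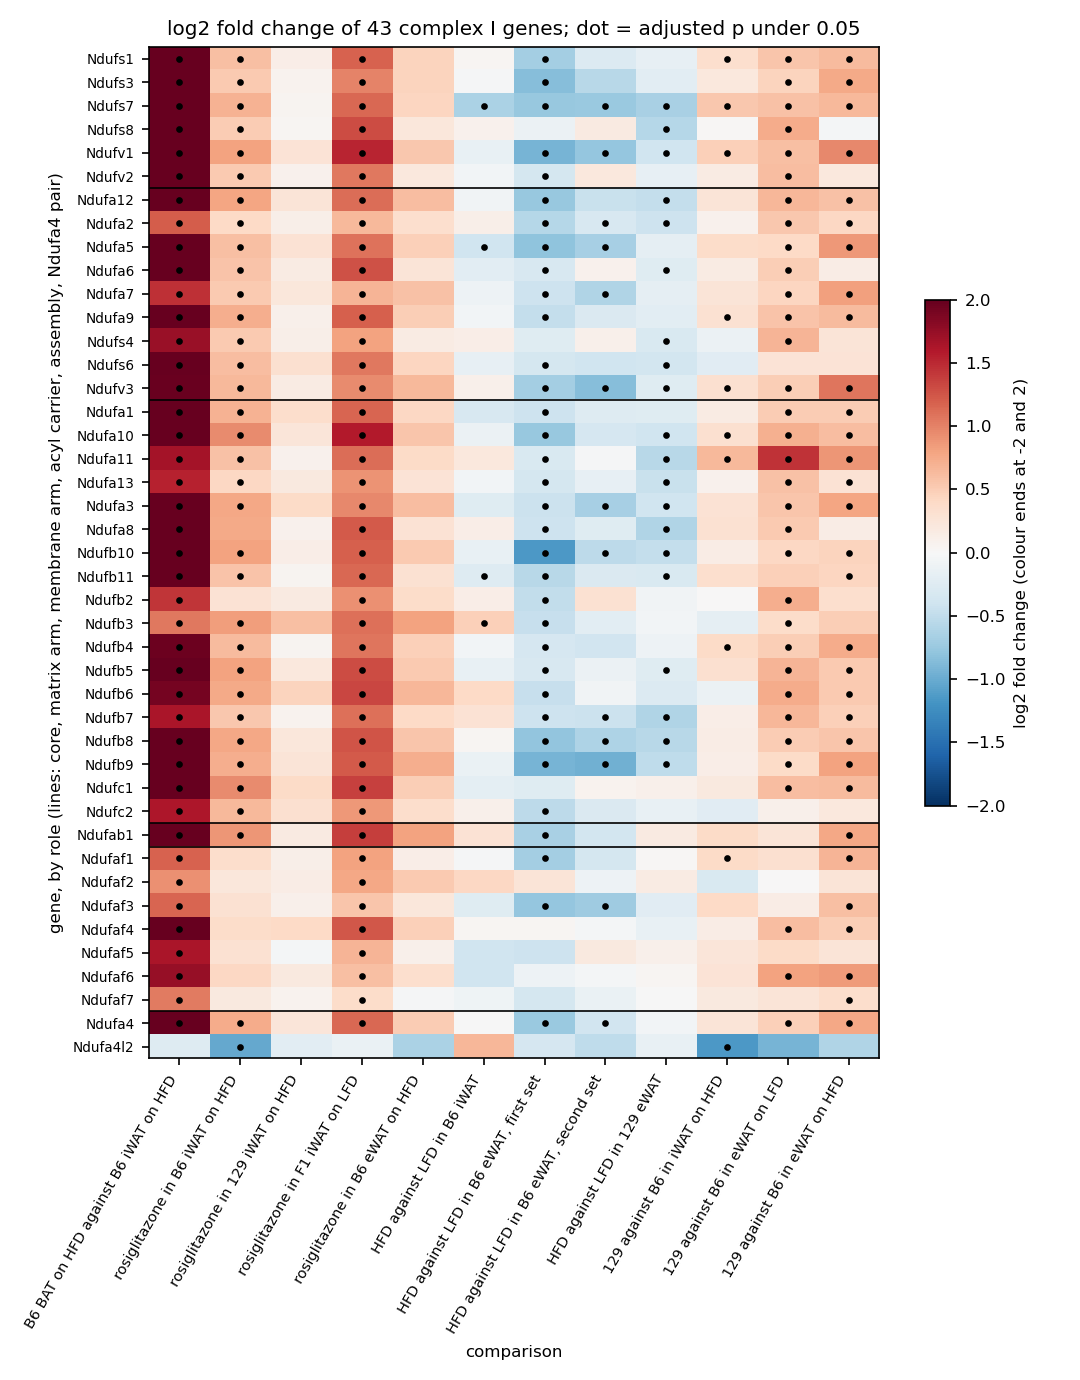
Log2 fold change (colour, ending at -2 and 2) of 43 complex I genes (rows, by role) in the 12 comparisons of 2 groups (columns), with a dot where the adjusted p is under 0.05. The columns for BAT and for rosi in F1 and B6 iWAT are red for nearly all structural subunits, the eWAT diet columns are mostly blue, and Ndufa4l2 in the lowest row goes the other way with rosi in B6 iWAT, at -1.03.

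High-fat diet went with lower complex I RNA in epididymal fat. In the first B6 set, 32 of 35 structural subunits fell on HFD and 0 rose, where 28.5% of the 12447 genes tested fell and 29.5% rose (58.0% in either direction). The median log2 difference was -0.48 against 0.00 over all genes. Ndufb10, a subunit at the far end of the membrane arm, was at 80.0, 94.09, 100.1, 79.14 and 89.72 CPM on LFD and at 41.31, 47.2, 42.99, 34.38 and 35.4 CPM on HFD. The groups lay far apart, and it fell by 1.14 ± 0.11 on the log2 scale (adjusted p = 1.70e-06). Ndufv1 fell by 0.92 ± 0.11 (adjusted p = 1.13e-05), and Ndufs3, a core subunit of the quinone module, by 0.85 ± 0.10 (adjusted p = 1.14e-05). Of the core subunits 6 of 7 fell, with a median of -0.75. The core subunit that did not was Ndufs8, which carries iron-sulfur clusters near the quinone site, at -0.11 ± 0.11 (adjusted p = 0.425). Of the assembly factors, Ndufaf1 fell by 0.67 ± 0.15 (adjusted p = 0.00170) and Ndufaf3 by 0.78 ± 0.19 (adjusted p = 0.00331), and 0 rose. Groups did not overlap for 20 of the 35 structural subunits, where 20.8% of all genes had every HFD library below every LFD library.

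In the second B6 set, 12 of 35 structural subunits fell and 0 rose, where 24.3% of 13106 genes fell and 25.7% rose. The share of members that fell, 12 of 35, is not far above that background. The median was -0.32, against -0.02 over all genes, and the 12 were all among the 32 of the first set. Ndufb9, a membrane arm subunit, fell by 0.97 ± 0.20 (adjusted p = 0.00431), and Ndufv3, an accessory subunit beside the NADH site, by 0.85 ± 0.18 (adjusted p = 0.00480). Ndufb9 was at 133.2, 131.5, 118.2 and 164.1 CPM on LFD and at 104.2, 59.5, 55.94 and 71.0 CPM on HFD, with the first HFD library nearest to the LFD libraries and no overlap. Ndufb2 had the highest value, 0.31 ± 0.16 (adjusted p = 0.138). Without the first HFD library 20 subunits were called, and without the second 7. The contrast with all genes depended on the low-count filter. Without it 7 subunits fell and 1 rose, Ndufb2, with a structural median of -0.16 against -0.27 over all 22419 genes. With DESeq2, 11 fell and 0 rose, with medians of -0.27 and -0.40. Without LFD library 4, 9 fell and Ndufs8 rose. The LFD libraries had between 39.3% and 49.1% of their reads in no feature and the HFD libraries between 33.9% and 36.4%, and the part of this was not tested.

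In 129 eWAT, 21 of 35 structural subunits fell on HFD and 0 rose, where 9.27% of 12554 genes fell and 11.9% rose. The median was -0.30 against 0.01 over all genes, and 22 of 35 had groups that did not overlap, where 11.2% of all genes had every HFD library below every LFD library. Ndufs7, a core subunit with an iron-sulfur cluster, had the lowest value, -0.65 ± 0.12 (adjusted p = 0.00313). Ndufa8 fell by 0.60 ± 0.09 (adjusted p = 8.80e-04) and Ndufb7, on the intermembrane face, by 0.60 ± 0.09. An edgeR fit over all eWAT libraries called 10 rather than 21. None of the 7 assembly factors passed in edgeR (0 with an unadjusted p under 0.05, and 0 by DESeq2), with a median of 0.03. In all 3 eWAT diet comparisons, 10 structural subunits fell, among them Ndufb10, Ndufb7, Ndufb8, Ndufb9, Ndufs7, Ndufv1 and Ndufv3.

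Markers of cell types moved with the diet in B6 eWAT. Of 12 adipocyte markers, 10 fell in the first set and 8 in the second, and 11 of 13 macrophage markers rose in each, with medians of 2.13 and 2.43. All 8 endothelial markers fell in both sets. Skeletal muscle markers fell for 5 of 6 in the first set, where 1 LFD library had 0.5498% of its counts in them. Adipocyte markers took between 4.41% and 4.72% of the counts on LFD and 1.83% and 3.18% on HFD in the first set. In 129 eWAT they took between 3.87% and 4.14% on LFD and 3.84% and 4.09% on HFD, with 2 of 12 higher and 3 lower, 1 of 13 macrophage markers higher and 1 lower, and 3 of 8 endothelial markers lower. Structural complex I CPM per adipocyte marker CPM was 0.0668 ± 0.00305 on LFD and 0.0849 ± 0.0102 on HFD in the first B6 set, and 0.0571 ± 0.00363 and 0.0731 ± 0.0110 in the second. In 129 eWAT it was 0.0773 ± 0.00132 on LFD and 0.0612 ± 0.00348 on HFD. The mean ratio was higher on HFD in both B6 sets and lower on HFD in 129. The libraries of the diets did not overlap in the first B6 set or in 129, and overlapped in the second B6 set (0.0520 to 0.0604 on LFD and 0.0577 to 0.0839 on HFD). The part of the cell types in the diet differences was not tested further.

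In B6 iWAT the diet comparison gave 4 calls among the 35 structural subunits, 1 higher and 3 lower on HFD. Of 13240 genes, 11.7% were higher and 11.1% lower on HFD (22.7% in either direction). The 4 are not above that background. The median was -0.05, against -0.01 over all genes. Ndufb3 was higher on HFD, at 103.6, 81.99, 91.53 and 85.53 CPM against 57.83, 81.77, 65.74 and 56.37 CPM on LFD (0.48 ± 0.13, adjusted p = 0.0254). The highest LFD library was just below the lowest HFD library, and the call was lost in 5 of 8 fits that left out 1 library. Ndufs7 was lower on HFD, at 44.65, 37.13, 35.21 and 44.63 CPM against 71.23, 59.53, 69.29 and 51.98 CPM, groups that did not overlap (-0.63 ± 0.12, adjusted p = 0.00585), and this call held in all 8 such fits. Ndufb11 (-0.26 ± 0.07) and Ndufa5 (-0.40 ± 0.12), which passed the test too, each lost it in at least 4 of 8. The count of calls was 2 without LFD library 1, 1 without LFD library 3, and 2 without HFD library 3 or 4. Skeletal muscle markers took between 0.8745% and 9.22% of the counts on LFD and at most 0.0308% on HFD, and muscle is itself rich in mitochondria. Adipocyte markers took 3.11% to 4.61% on LFD and 4.63% to 5.32% on HFD, and endothelial markers 0.0718% to 0.0781% and 0.0875% to 0.110%. Summed macrophage markers, which follow their most abundant members, took 0.471% to 0.823% on LFD and 1.05% to 1.12% on HFD. Among single macrophage genes, Itgax was higher on HFD (2.08 ± 0.57, adjusted p = 0.0266). C1qa (0.08 ± 0.25), Csf1r (-0.10 ± 0.20), Mrc1 (-0.05 ± 0.24), Adgre1 (0.63 ± 0.35) and Cd68 (0.849 ± 0.415) did not pass the test. The sum thus does not give the level of each of these genes. The part of all these markers in the differences was not tested.

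Between control libraries on the same diet, structural subunits were higher in 129 than in B6 for most members in eWAT and for fewer in iWAT. In eWAT on LFD, 30 of 35 structural subunits were higher in 129 and 0 lower, where 16.1% of 12523 genes were higher and 16.2% lower. The median log2 difference was 0.55, against -0.03 over all genes, and 28 of 35 subunits had groups that did not overlap, where 17.4% of all genes had every 129 library above every B6 library. Signs of RNA quality differed too: the B6 libraries had between 39.3% and 49.1% of reads in no feature and 0.748% to 1.65% of counts in Rn45s, against 32.3% to 36.7% and 0.318% to 0.659% in 129, and neither overlapped. Their part was not tested. The first B6 set on LFD, in another run, had a summed structural level of 2717 to 3212 CPM, which overlapped the 2985 to 3336 CPM of 129, while the second set, used in this comparison, was at 1861 to 2502 CPM. The first set had 65.7% to 67.7% of its reads in no feature, farther from 129 than the second set, and the part of this was not tested. In eWAT on HFD, 25 were higher and 0 lower, where 25.3% of 13206 genes were higher and 28.9% lower (54.2% in either direction), with a median of 0.52 against -0.01. In iWAT on HFD, 8 were higher and 0 lower, where 11.7% of 12894 genes were higher and 16.1% lower, with a median of 0.20 against 0.01. That count was between 4 and 12 when 1 library was left out, with 5, 4 and 5 calls without B6 library 2, 3 and 4. The median was lowest, at 0.129, without 129 library 3, which left 6 calls. That library had 4.52% of its counts in skeletal muscle markers, and their part was not tested. The assembly factors gave 2 calls in eWAT on LFD, 5 in eWAT on HFD and 1 in iWAT, all higher in 129. The 129 and B6 groups of these comparisons also enter the diet and rosi comparisons above.

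Ndufa11, a membrane arm subunit at the contact between complex I and complex III, had the largest strain difference of the structural subunits in eWAT on LFD and in iWAT. In eWAT on LFD it was at 65.67, 65.47, 79.44 and 56.32 CPM in 129 and at 23.51, 20.78, 25.38 and 27.05 CPM in B6, a log2 difference of 1.44 ± 0.13 (adjusted p = 1.90e-05). In iWAT on HFD it was at 58.7, 57.07, 57.62 and 47.35 CPM in 129 and 38.29, 32.91, 31.06 and 35 CPM in B6 (0.65 ± 0.10, adjusted p = 8.45e-04). The strains did not overlap in either. In eWAT on HFD its difference was 0.89 ± 0.12 (adjusted p = 3.28e-04), and these calls held in every fit that left out 1 library. In the first B6 eWAT set, in another run, Ndufa11 was at 39.57 to 51.63 CPM on LFD, above the second B6 set and below 129 on the same diet. That set had 65.7% to 67.7% of its reads in no feature, against 32.3% to 36.7% in 129 on LFD, and the part of this was not tested. The promoter of Ndufa11, printed above, is the B6 reference sequence.

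The other subunits that were higher in 129 in all 3 strain comparisons were Ndufa10, Ndufa9, Ndufb4, Ndufs1, Ndufs7, Ndufv1 and Ndufv3, which makes 8 with Ndufa11. Not all of these calls were stable when 1 library was left out. In iWAT Ndufa9 and Ndufs1 each lost theirs in 6 of 8 fits, Ndufa10 in 3 and Ndufb4 in 1, and in eWAT on LFD Ndufs7 lost it in 6 of 8. On HFD the largest difference in eWAT was that of Ndufv3, at 124.0, 113.2, 123.9 and 112.1 CPM in 129 and 77.27, 49.66, 43.82 and 55.81 CPM in B6 (1.06 ± 0.17, adjusted p = 0.00105). The strains did not overlap. Ndufs8 had the lowest value there, -0.04 ± 0.10 (adjusted p = 0.745). In eWAT on HFD, 11 of 13 macrophage markers were lower and 8 of 12 adipocyte markers higher in 129. In eWAT on LFD, 1 of 13 macrophage markers was higher and 3 of 12 adipocyte markers were higher, with 0 lower in either list, while 7 of 8 endothelial markers were lower. In iWAT on HFD, 9 of 13 macrophage and 7 of 8 endothelial markers were lower and 10 of 13 skeletal muscle markers higher in 129. The part of these markers was not tested further.

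**Figure D4:**
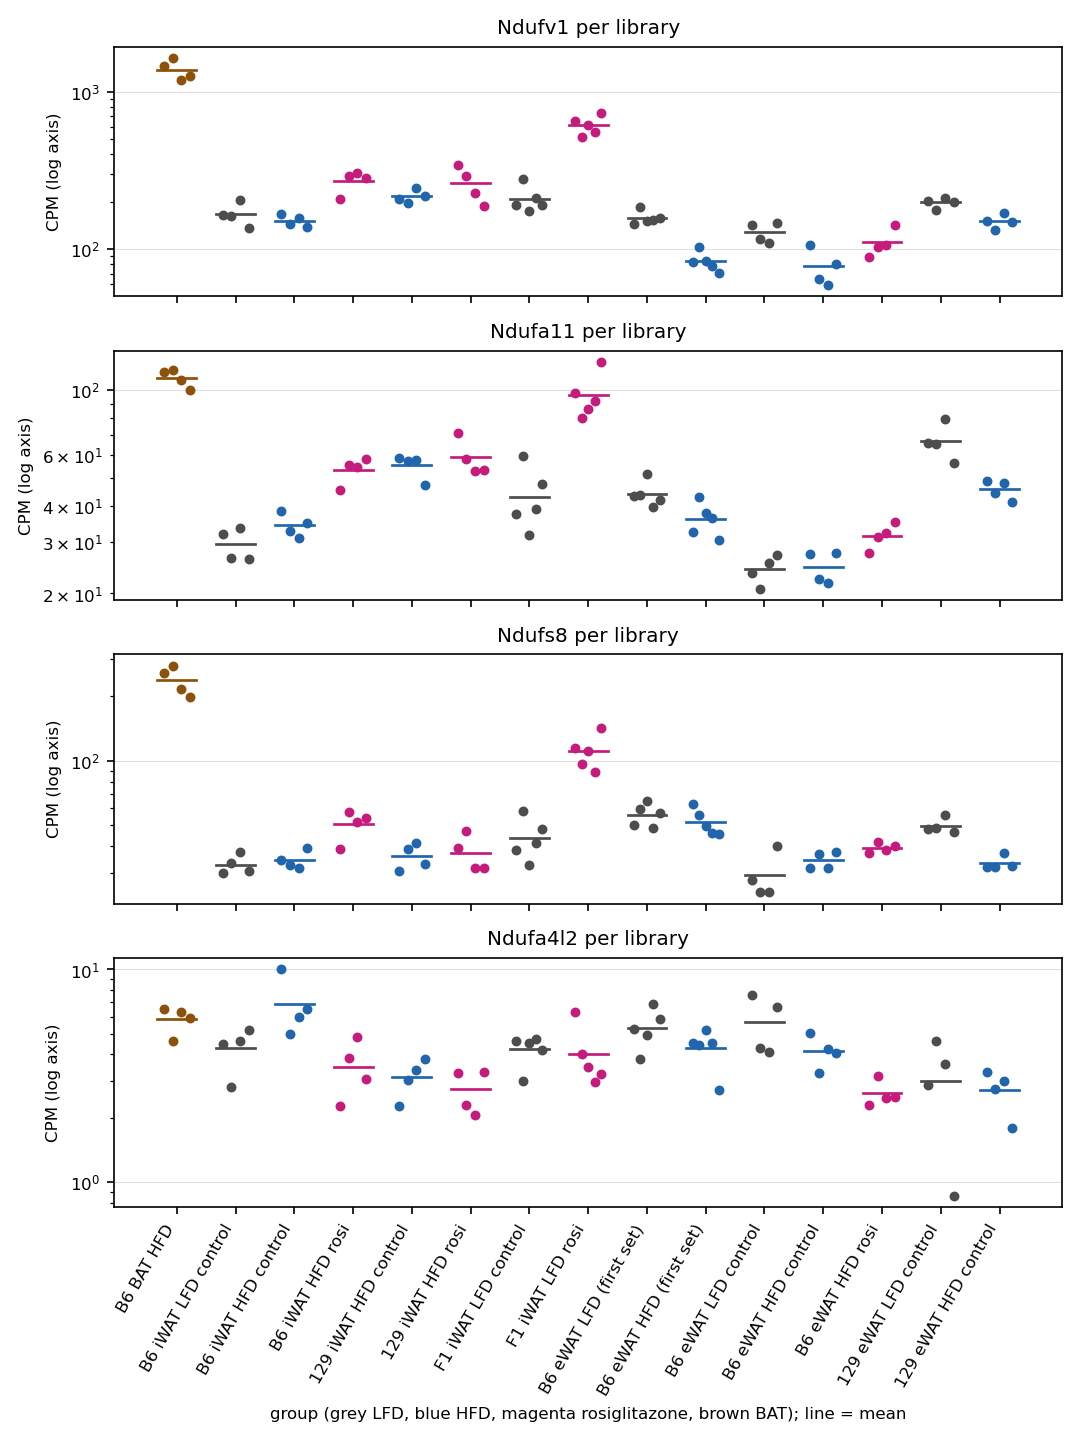
CPM (log axis) of Ndufv1, Ndufa11, Ndufs8 and Ndufa4l2 in each library by group, where points are libraries and lines are group means. Ndufa11 in 129 eWAT on LFD lies between 56.32 and 79.44 CPM, above all B6 eWAT libraries, and Ndufa4l2 shows no rise in BAT or with rosi.

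Whether diet acted differently in the eWAT of the strains was tested as an interaction, and 5 of 35 structural subunits passed, where 18.7% of 13523 genes had a more positive and 21.5% a more negative diet effect in 129 (40.2% in either direction). The 5 are not above that background. Ndufs8 was at 47.88, 48.34, 55.77 and 46.39 CPM on LFD and 31.78, 32.08, 36.94 and 32.3 CPM on HFD in 129, and at 27.77, 24.48, 24.35 and 40.11 CPM on LFD and 31.74, 36.66, 31.45 and 37.52 CPM on HFD in B6. The diets did not overlap in 129 and overlapped in B6. The difference of the diet effects was -0.80 ± 0.19 (adjusted p = 0.00297) and held in all 16 fits that left out 1 library. Ndufa11 (-0.57 ± 0.17, adjusted p = 0.0144) also held in all 16. Ndufv2, a core subunit of the NADH module (-0.42 ± 0.15), Ndufa5 (0.45 ± 0.16) and Ndufv3 (0.56 ± 0.21) passed as well, and each lost its call in at least 8 of the 16. The median of the 35 was 0.00. The B6 libraries were the second set only. Its LFD libraries had 39.3% to 49.1% of reads in no feature, against 32.3% to 36.7% in 129 on LFD, and the part of this was not tested. In the first B6 set Ndufa11 itself fell on HFD. Its values were between -0.366 and -0.234 when 1 library was left out, and the call was lost in 7 of 10 such fits. In the interaction, 8 of 12 adipocyte and 8 of 8 endothelial markers had a more positive diet effect in 129, and 11 of 13 macrophage markers a more negative one. Their part was not tested.

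Other genes of the respiratory chain and of mitochondria were read from fixed lists. Of 38 nuclear genes of complexes II to V, 36 were higher in BAT, 37 rose with rosi in B6 iWAT, 36 in F1 iWAT and 0 in 129 iWAT, with median log2 differences of 2.16, 0.73, 1.17 and 0.23. The number that changed the other way was 2 in BAT and 0 in the rosi comparisons. On HFD 33 fell and 1 rose in the first B6 eWAT set, 9 fell and 2 rose in the second, and 21 fell in 129. In 129 against B6 eWAT, 33 were higher and 1 lower on LFD, and 21 higher and 2 lower on HFD. The ratio of structural complex I CPM to the CPM of those 38 genes lay between 0.329 in B6 iWAT with rosi and in BAT and 0.379 in the first B6 eWAT set on LFD, over all 15 group means. Of 16 mitochondrial genes outside the chain, 15 were higher in BAT and 12 rose with rosi in B6 iWAT. Structural complex I CPM per CPM of these 16 genes was 1.62 ± 0.07005 in BAT and 0.982 ± 0.0169 in B6 iWAT control on HFD. In eWAT it was 1.22 ± 0.0449 on LFD and 0.952 ± 0.0355 on HFD in the first B6 set, and 1.104 ± 0.0711 and 0.780 ± 0.0590 in the second, with no overlap between diets in either. In 129 eWAT it was 1.12 ± 0.0535 and 1.03 ± 0.0328, and the diets overlapped. The summed level of the 16 genes in the second B6 set was 1922 ± 168 CPM on LFD and 2150 ± 217 CPM on HFD, with overlapping libraries.

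Of 15 regulators of mitochondrial biogenesis tested, 3 rose with rosi in B6 iWAT and 0 fell. They were Esrra, a nuclear receptor of respiratory genes (0.71 ± 0.14, adjusted p = 0.00761), the coactivator gene Ppargc1b (0.99 ± 0.27, adjusted p = 0.0381), and Lrpprc, which stabilises mitochondrial RNA (0.43 ± 0.11, adjusted p = 0.0279). In F1 iWAT 9 of 14 tested rose and 1 fell, among them Ppargc1b (1.88 ± 0.25), Ppargc1a, its relative (1.56 ± 0.22), and Esrra (1.14 ± 0.15), while Nrip1, a corepressor, fell by 0.57 ± 0.18 (adjusted p = 0.0262). In BAT 13 of 16 tested were higher than in iWAT and 1 lower, with Ppargc1b at 5.32 ± 0.18 and Ppargc1a at 4.64 ± 0.24. On HFD in B6 eWAT, Ppargc1a fell by 1.38 ± 0.27 in the first set (adjusted p = 6.46e-04) and by 1.48 ± 0.47 in the second (adjusted p = 0.0261). The other regulators are not given for these sets, so Ppargc1a does not stand for the list there. In 129 eWAT 5 of 14 rose on HFD and 2 fell. Esrrg rose most, by 1.15 ± 0.23 (adjusted p = 0.00474), and Gabpa, Nrip1, Tfb2m and Yy1 rose too. Esrra fell by 0.49 ± 0.12 (adjusted p = 0.0130) and Ppargc1b by 0.81 ± 0.25 (adjusted p = 0.0327). Ppargc1a did not pass there (0.07 ± 0.22, adjusted p = 0.845). Brown adipocyte markers rose with rosi in 7 of 9 tested in B6 iWAT and in 8 of 8 in F1 iWAT. These markers took between 0.00722% and 0.0159% of the counts in B6 iWAT control on HFD and between 0.0222% and 0.0474% with rosi, and between 0.0268% and 0.0608% in F1 control and 0.225% and 0.670% with rosi. Their part in the rise of complex I genes was not tested.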

How the data were processed

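Total RNA of 64 mouse fat samples was extracted with Trizol and RNeasy columns, depleted of ribosomal RNA with Ribo-Zero gold and made into TruSeq libraries, per the labels' protocols. The deposited files hold raw counts per gene symbol, 1 file a sample. TopHat2 2.1.0, HTSeq and the build mm9 are named in the submitters' processing notes, with no settings, and whether strand was used is not given in the sources used here. Reads shared by near-identical gene copies could therefore have been lost or split, and members with such copies are uncertain. The deposited counts also hold 5 tally rows, which stayed out of all totals. The no-feature row held between 29.29% and 70.55% of all tallied reads. Library totals over genes were 3099737 to 9551251 counts, and PCR duplicates were not marked in the files.

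Each comparison was fitted with edgeR 4.0.16 in R 4.3.3 (TMM scaling, quasi-likelihood F test) over the groups compared, after a filter of at least 10 counts by filterByExpr with a total of at least 15. P-values were adjusted by Benjamini-Hochberg over all genes tested, with a threshold of 0.05, and the SE is the log2 fold change divided by the square root of F. In all, 12 comparisons of 2 groups and 3 interactions were fitted, and several share groups: B6 iWAT control on HFD enters the BAT, rosi, diet and strain comparisons. CPM used TMM factors over all 64 libraries. The scripts were tested on simulated data. The members and lists were chosen with earlier results of these data known.

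Genes were named by a rule: a panel of members, and for each comparison the 3 structural subunits with the lowest adjusted p, those with the highest and the lowest fold change, those called against the median, and called assembly factors. Members shown beside the promoters, those shared between comparisons and those behind counts of 5 or fewer were chosen after their values were seen. The values of 1 member are not reported here. The alternatives were median-of-ratios scaling, no low-count filter, DESeq2 1.42.0, a replicate block, a fit over all libraries of the tissue, and leaving out each library.

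For BAT against iWAT, same-numbered libraries deviated together, with correlations between 0.244 and 0.357 in all 4 pairs. The numbers come from the sample titles, and no label says what they mark.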

Additional observations from a re-analysis of the deposited data

Results flagged for a closer look

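In 10 of 165 sets of values, each a gene or a sum in 1 group, 1 library stood far from the others of its group. Chance flags about 1 set in 20. In B6 iWAT with rosi on HFD, library 1 was low for the summed structural subunits, at 3453 CPM against 4592 to 4771 CPM, and for Ndufs1, at 217.3 CPM against 308.0 to 319.0 CPM. In B6 eWAT control on HFD, library 1 was high for the summed assembly factors, at 88.1 CPM against 64.7 to 66.03 CPM. In B6 eWAT control on LFD, Ndufab1 was at 14.52 CPM in library 2 against 21.72 to 22.49 CPM. Ndufab1 was also low in library 1 of 129 iWAT control, at 16.63 CPM against 33.11 to 35.2 CPM.

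In F1 iWAT with rosi, library 5 was high for Ndufa4, at 620.7 CPM against 401.6 to 443.4 CPM, and for Ndufaf1, at 63.86 CPM against 40.79 to 47.27 CPM. In F1 control, Ndufaf1 was low in library 2, at 20.92 CPM against 26.73 to 28.64 CPM. Ndufaf2 was high in library 1 of BAT, at 20.29 CPM against 16.23 to 16.78 CPM, and in library 3 of 129 eWAT on LFD, at 8.225 CPM against 5.179 to 5.64 CPM.

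The effect of diet in eWAT differed between 129 and B6 for 5 structural subunits in edgeR's test of the interaction, where 40.2% of all genes passed. The difference of the log2 effects, 129 minus B6, was -0.80 for Ndufs8 (adjusted p = 0.00297), -0.57 for Ndufa11 (adjusted p = 0.0144) and -0.42 for Ndufv2 (adjusted p = 0.0354). It was 0.56 for Ndufv3 (adjusted p = 0.0397) and 0.45 for Ndufa5 (adjusted p = 0.0383). Ndufv2 lost its call in 8 of the 16 fits that left out 1 library, and Ndufa5 and Ndufv3 in 12 each. The B6 libraries of this test were those of the second set only.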

How the results depend on the processing

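Of 3758 refits of the 274 calls of single genes, 3434 kept the call, 324 no longer passed the threshold and 0 changed sign. Of 225 refits of the summary counts and medians other than those leaving out a library, 211 were taken as unchanged. A count was so if it stayed within 1.5 times and did not reverse its main direction. A median was so if it moved by no more than the SD of the libraries' log2 summed structural level. With no low-count filter, 2 such medians moved from 0.00 to -0.07 (interaction of diet and strain) and from -0.32 to -0.16 (second B6 eWAT set). The exceptions were few. With DESeq2, 1 assembly factor passed for rosi in B6 iWAT (also with median-of-ratios scaling), 1 structural subunit for rosi in 129 iWAT, 1 for the strain difference in the rosi effect, and 1 assembly factor rather than 2 for strain in eWAT on LFD. Over all libraries of a tissue, 2 structural subunits passed for rosi in B6 eWAT, 2 for diet in B6 iWAT, 10 for diet in 129 eWAT, and 5, with 2 assembly factors, for strain in iWAT. With no low-count filter, 0 assembly factors passed for diet in the second B6 eWAT set and for strain in iWAT, and 3 structural subunits for the interaction of diet and strain. The cause was not tested.

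Leaving out 1 library gave these ranges of structural calls: 0 to 1 for rosi in 129 iWAT and for the strain difference in the rosi effect, 1 to 4 for diet in B6 iWAT, 7 to 20 for the second B6 eWAT set, 4 to 12 for strain in iWAT, and 2 to 9 for the interaction of diet and strain. In that last case the 9 calls came without library 1 of B6 eWAT control on HFD. Without the same library the median strain difference in eWAT on HFD was 0.711, in a range of 0.489 to 0.711. Assembly factor calls ranged from 0 to 1 for rosi in B6 iWAT and for the interaction, 0 to 2 for diet in B6 iWAT, for the second eWAT set and for strain in iWAT, 2 to 4 for the first eWAT set, 1 to 3 for strain in eWAT on LFD and 3 to 6 on HFD.

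With the replicate block, which the pairing check bears out for BAT against iWAT, the counts there stayed at 35 and 7. In the other comparisons it is not settled whether the numbers pair the libraries. Correlations of same-numbered libraries ran from -0.196 to 0.696 for rosi in B6 eWAT, for example. The block gave 29 structural calls for rosi in B6 iWAT and 16 for the second eWAT set, and 1 assembly factor for strain in eWAT on LFD. Without strand or length information, and at 4 to 71 counts a library, Ndufa4l2 was the least precisely measured member.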
